A study of Rattus norvegicus and Bos taurus with 12 samples.

Results

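The genes described here encode histones and the enzymes and complexes that act on chromatin. They were chosen by symbol, as every listed gene whose name begins with a histone prefix (Hist1 to Hist4, H1f, H2af, H3f) or with the prefix of a chromatin gene family. These families are the histone deacetylases, sirtuins, lysine methyltransferases, demethylases and acetyltransferases, the bromodomain, chromobox, chromodomain helicase, Smarc, Arid, Polycomb and DNA methylation proteins, and the high mobility group A and B proteins. The rule found 63 of the 7052 genes listed for adult rat ventricular myocytes (ARVM) and 18 of the 2115 listed for bovine cardiac fibroblasts (Cfib). That is 81 of 9167 rows and 71 different symbols, of which 10 stood in both tables. RNA was sequenced from 12 libraries, 3 per group. ARVM from Sprague Dawley rats were either freshly isolated and untreated (libraries con4, con5 and con6) or kept for 7 days in PH-CM (libraries ha2, ha209 and ha211), the medium conditioned by fibroblasts of calves with pulmonary hypertension (PH). The Cfib came from the right ventricle of neonatal calves and were grown in culture, with 3 libraries from control calves (CO) at ambient altitude and 3 from calves made hypertensive at reduced atmospheric pressure. The groups are named as in the study, whereas the sample labels describe the treatments as serum of cattle kept at low or high altitude. The 7 days of culture and the PH-CM cannot be told apart in the ARVM comparison, and ARVM cultured without PH-CM were not analysed here.

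A nucleosome is DNA wound around a core of histones H2A, H2B, H3 and H4, with a linker histone H1 at its edge. Most core and H1 histones are made from clusters of replication genes that are read in S phase, when new DNA has to be packed, and their mRNAs end in a stem-loop in place of a poly(A) tail. Replacement histones such as H2A.Z, H2A.X, macroH2A and H1.0 are encoded outside these clusters and are also made in cells that do not divide, as adult cardiac myocytes largely do not. Around the nucleosome, acetyltransferases and deacetylases, methyltransferases and demethylases, reader proteins and ATP-driven remodelers set how open the DNA is. Library RNA had been depleted of ribosomal RNA, a preparation that does not depend on a poly(A) tail.

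Both tables hold only genes that the authors had selected for a difference between the groups (p under 0.05), so that the groups did not overlap in 100% of listed genes and nearly all of them passed the test used here. Counts of members are therefore descriptions, given beside the same count over all listed genes. The ARVM values are normalized counts, equal to reads divided by 1 factor per library, and the 6 libraries held 12122463 to 18842171 reads on the listed genes, of which 31903 to 84484 were on members. In the Cfib table each value is a signal that had been scaled for length and for library, and the depth behind it is unknown. In ARVM, 10 of 11 listed cardiomyocyte markers fell, and their summed level went from at least 1370620 normalized counts in each freshly isolated library to between 176403 and 215665 after PH-CM. All 12 fibroblast markers rose, from sums of 1976 to 2662 to sums of 90480 to 134348. Of 12 macrophage markers 11 rose, from sums of 238 to 373 to sums of 7843 to 11635, and Cd74, which gave most of the sum of the list in freshly isolated ARVM, fell from between 6559 and 6778 to between 401 and 523. The sums over all 12 were 6932 to 7099 and 8267 to 12036. Of 10 smooth muscle and pericyte markers 7 rose and 3 fell (68077 to 75045 against 83209 to 89669). Without Des, which cardiac myocytes also express and which fell from between 63557 and 70393 to between 39441 and 51133, the other 9 summed to 4520 to 5235 and 32076 to 50229. Of 10 endothelial markers 9 fell (11129 to 13556 against 4564 to 5268). In freshly isolated ARVM, Thy1, Fbln1, Ptprc, C1qc, Fcgr3a and Cnn1 were at 0 in at least 1 library. Their part in the results below was not tested, and in bulk RNA fewer cells of a type and less RNA per cell cannot be told apart. PH-CM library ha209 stood apart from the other PH-CM libraries in the histones, and the results that rest on it are given with and without it.

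In ARVM, the listed histone transcripts all rose, while the listed enzymes, readers and remodelers more often fell. All 21 listed histones were higher after PH-CM and passed the test, and their median log2 fold change was 2.32. Of the 42 other members, 13 rose, 27 fell and 2 did not pass (median −0.31). Over all 63 members, 61 passed (34 higher, 27 lower), beside 97.6% of all listed genes (53.9% higher, 43.7% lower). The median log2 fold change was 0.37 over the members and also 0.37 over all listed genes. With an absolute log2 fold change of at least 1 as well, 24 members were called (20 higher, 4 lower), beside 48.3% of all listed genes. Each comparison used limma on log2(normalized count + 1), with Benjamini-Hochberg adjustment over all 7052 genes and a threshold of 0.05. Values after ± are standard errors for fold changes and SDs for means (n = 3 per group). The adjustment leaves out genes that were not listed, and the listed ones had been selected for a difference. The adjusted p-values here and for Cfib are therefore descriptions too.

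The 17 replication histones included H1, H2A, H2B and H4 genes but no H3 gene. Their log2 fold changes ran from 0.70 to 4.93 with a median of 3.02. The largest was that of Hist1h2bk, a core histone H2B gene, with 31.7, 52.5 and 54.8 normalized counts in freshly isolated con4, con5 and con6 and 1444, 927 and 2039.6 in PH-CM ha2, ha209 and ha211 (log2 fold change 4.93 ± 0.32, adjusted p = 4.84e-06). Hist1h1a, a linker histone gene, had 45.9, 34.3 and 60.9 normalized counts in freshly isolated ARVM and 1128, 868 and 1512 in PH-CM ARVM (log2 fold change 4.61 ± 0.27, adjusted p = 2.80e-06). A further linker histone gene, Hist1h1b, went from 55.4, 132 and 117 to 1200.2, 927 and 1414 normalized counts (log2 fold change 3.60 ± 0.32, adjusted p = 2.69e-05). In all 3, every PH-CM library lay several-fold above every freshly isolated one, and library ha209 was the lowest of the PH-CM libraries. By ratio of group means, Hist1h2bk was 31.8-fold, Hist1h1a 24.9-fold and Hist1h1b 11.7-fold higher after PH-CM. The fold change on the log2(value + 1) scale understates the change of the genes that were low in freshly isolated ARVM.

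Other replication histones had larger normalized counts before treatment, which are not scaled for length, and changed less. Hist1h2bh, an H2B gene, had 5666, 5316 and 5793 normalized counts in freshly isolated ARVM and 9762, 6988 and 10867 in PH-CM ARVM (log2 fold change 0.70 ± 0.15, adjusted p = 0.00264). Summed over the 17 genes, the freshly isolated libraries had 9087, 9582 and 9541 normalized counts, of which Hist1h2bh gave the most. Hist3h2a rose by 0.73, Hist1h4b by 1.01 and Hist1h1d by 1.70 on the log2 scale, from group means of 945 ± 55.3, 837 ± 76.7 and 981 ± 134 normalized counts. The sum over the 17 genes was 26490, 18976 and 29320 normalized counts in the PH-CM libraries, 2.65 times the mean of the freshly isolated ones. The sum moved less than the median gene, since Hist1h2bh, Hist3h2a, Hist1h4b and Hist1h1d gave most of it in freshly isolated ARVM and rose least.

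The remaining 10 replication histones rose by between 1.78 (Hist1h2bo) and 3.39 (Hist1h2ak) on the log2 scale. Among the core histones of this group, Hist1h4m, an H4 gene, went from 258, 353 and 268 to 1914, 963 and 1892 normalized counts, and Hist1h2bl, an H2B gene, from 85.5, 168 and 133 to 1424, 833 and 1622. The others were Hist1h2ail1 (1.91), Hist3h2bb (2.32), Hist1h2bd (3.02), Hist1h2an (3.15), Hist1h2aa (3.20) and Hist1h2ba (3.32), each value a log2 fold change. Some rest on few reads: Hist1h2ba had 34 reads and Hist3h2bb 44 reads over the 3 freshly isolated libraries together, against 480 and 339 over the PH-CM libraries. The genes of a histone cluster are near-identical copies, so how the reads were shared out between them is uncertain, and the value of a single copy is less certain than that of the family.

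**Figure D1:**
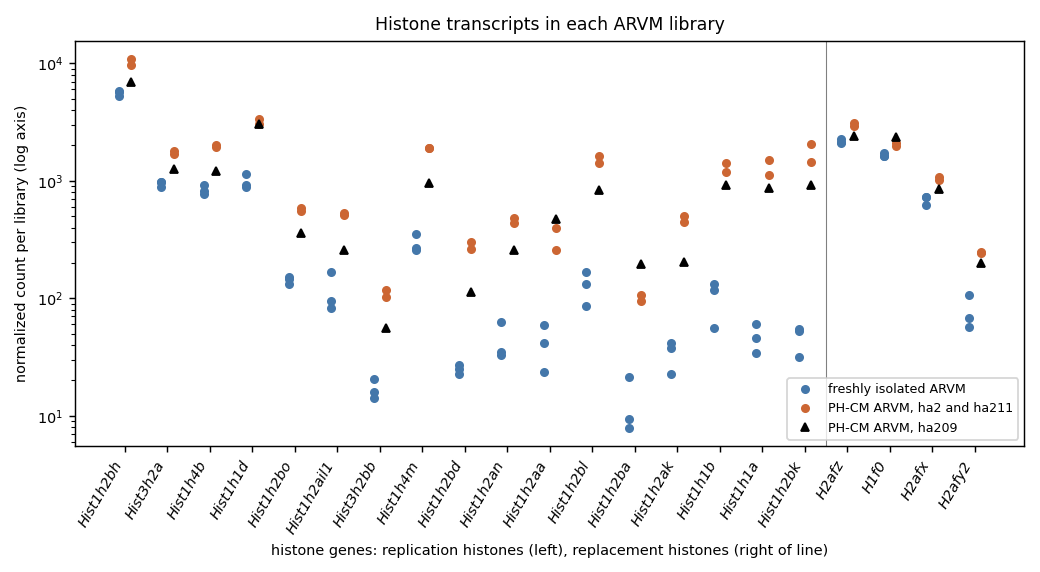
Normalized counts (log axis) of the 21 listed histones in each ARVM library, with replication histones on the left in order of log2 fold change and replacement histones on the right; blue points are the 3 freshly isolated libraries, orange points PH-CM libraries ha2 and ha211, and black triangles PH-CM library ha209. The PH-CM points lie above the freshly isolated points of each gene, by the most for Hist1h2bk and Hist1h1a. By selection, the groups did not overlap in 100% of listed genes. The triangle lies below the orange points for 14 of the 17 replication histones.

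The replacement histones rose too, by less. H2afz, which encodes H2A.Z, had 2160.2, 2275 and 2086 normalized counts in freshly isolated ARVM and 2946, 2421 and 3119.5 in PH-CM ARVM (log2 fold change 0.37 ± 0.10, adjusted p = 0.00671). H1f0, the linker histone of resting and differentiated cells, had 1727, 1619.6 and 1636 and 1995, 2357 and 2114 (log2 fold change 0.37 ± 0.07, adjusted p = 0.00189). These 2 were close to the median of all listed genes, 0.37. That median is over genes selected for a difference in either direction, so closeness to it does not show that they were unchanged. H2afx, the variant that is phosphorylated at DNA breaks, went from 728, 731 and 623 to 1009.6, 853 and 1088 (log2 fold change 0.50 ± 0.11, adjusted p = 0.00361). H2afy2, which encodes a macroH2A with a large globular tail domain, went from 108, 67.5 and 56.8 to 244, 201 and 248 (log2 fold change 1.61 ± 0.27, adjusted p = 0.000735). It alone among the 4 replacement histones rose by more than 1 on the log2 scale.

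Promoter stretches of histone genes at both ends of this range are shown because the replication histones share sequence features that the selection by name did not use. They were taken from RefSeq (assembly GRCr8), 5′ to 3′ on the strand named. Capitals mark matches, on either strand, to the CCAAT box, to the TATA box as TATAAA, and to the octamer (ATTTGCAT). They also mark TTTCGCGC and TTTGAA, which are not particular to histone promoters. Hist1h2bk, with the largest rise, is shown at chr17:47181941-47182090 (minus strand) and Hist1h1a at chr17:41794869-41795018 (minus strand). The neighbouring and divergent genes Hist1h2aa and Hist1h2ba are shown by the 239 bases between their starts, chr17:41599673-41599911 (plus strand). H1f0, a replacement histone, is shown at chr7:112473130-112473279 (plus strand).
Hist1h2bk: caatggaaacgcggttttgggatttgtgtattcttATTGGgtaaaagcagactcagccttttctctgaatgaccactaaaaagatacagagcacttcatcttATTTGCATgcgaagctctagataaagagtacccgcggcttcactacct
Hist1h1a: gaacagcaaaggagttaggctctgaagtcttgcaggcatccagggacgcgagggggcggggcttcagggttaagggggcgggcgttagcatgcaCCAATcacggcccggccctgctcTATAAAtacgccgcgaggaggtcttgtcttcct
Hist1h2aa to Hist1h2ba: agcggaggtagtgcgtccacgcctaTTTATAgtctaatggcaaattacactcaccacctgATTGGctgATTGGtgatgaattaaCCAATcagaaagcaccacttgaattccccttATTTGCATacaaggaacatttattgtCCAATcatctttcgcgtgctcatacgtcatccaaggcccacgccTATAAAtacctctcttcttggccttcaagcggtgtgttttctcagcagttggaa
H1f0: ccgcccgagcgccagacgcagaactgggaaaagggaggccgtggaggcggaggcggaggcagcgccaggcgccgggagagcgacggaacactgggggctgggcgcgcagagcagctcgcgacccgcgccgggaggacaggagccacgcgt

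The Hist1h2bk stretch holds 1 CCAAT match and 1 octamer, that of Hist1h1a 1 CCAAT and 1 TATAAA, and the shared region of Hist1h2aa and Hist1h2ba 4 CCAAT matches, 2 TATAAA and 1 octamer, whereas that of H1f0 holds none of the 5 motifs. A RefSeq promoter window, from 250 bases before to 50 after the start, was found for 51 of the 63 members, 14 of the 17 replication histones among them. Of the replication histones, 12 lay on chromosome 17 and 2 on chromosome 10, and 3 could not be matched to 1 gene. CCAAT was in 12 of the 14 windows (85.7%), beside 39.8% of 19005 protein-coding windows and 39.6% of 27457 windows of all genes. TATAAA was in 8 (57.1%, beside 14% and 15.3%), the octamer in 7 (50%, beside 1.88% and 1.77%), TTTGAA in 8 (57.1%, beside 18.1% and 19.4%) and TTTCGCGC in 1 (7.14%, beside 0.489% and 0.361%). The window of Hist1h2bk, longer than its printed stretch, also held TATAAA and TTTCGCGC. Of the 3 replacement histones with a window, H1f0 and H2afy2 held none of the 5 motifs. H2afz held 3 of them, the CCAAT box, the TATA box and the motif TTTGAA, but not the octamer. Of the 34 windows of members other than histones, CCAAT was in 41.2%, TTTGAA in 23.5% and TTTCGCGC in 5.88%, and none held TATAAA or the octamer. Divergent neighbours share part of a window (Hist1h2aa with Hist1h2ba, Hist3h2a with Hist3h2bb), so these counts are not of independent sequences, and a match is a run of letters and not a bound site.

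Within the PH-CM group, most histones were lowest in 1 library. PH-CM library ha209 had the lowest value of the 3 for 14 of the 17 genes, beside 42.8% of all listed genes, and its median ratio to the mean of libraries ha2 and ha211 was 0.611 (0.973 over all listed genes). Of the 4 replacement histones it was lowest in 3, with a median ratio of 0.815, and H1f0 was the exception. The other members that rose were mixed. Cbx2 (ratio 0.504), Dnmt1 (0.776), Hmgb2 (0.792), Cbx6 (0.832), Hdac1 (0.875), Smarca1 (0.914) and Smarcd2 (0.925) were lower in it than the mean of the other PH-CM libraries. Kdm4a (0.982) and Kdm5b (0.997) were near level, and Setd5 (1.05), Setd7 (1.06), Hdac8 (1.14) and Cbx7 (1.21) were higher. Hist1h1d was near level, with a ratio of 0.956, and for Hist1h2aa and Hist1h2ba library ha209 was the highest, with ratios of 1.45 and 1.93. These 2 exceptions, the H2A and H2B genes of testis, are the divergent neighbours whose shared region is printed above, and were singled out after their values were seen. Hist1h2aa had 23.7, 41.8 and 58.9 normalized counts in freshly isolated ARVM and 397, 475 and 258 in PH-CM ARVM (log2 fold change 3.20 ± 0.37, adjusted p = 0.000108). Hist1h2ba had 7.91, 21.4 and 9.30 and 107, 195 and 95.6 (log2 fold change 3.32 ± 0.45, adjusted p = 0.000254). Without library ha209, all 21 histones still passed and their median log2 fold change was 2.64. Of the 27 listed genes of S phase and mitosis, 26 were also lowest in library ha209 among the PH-CM libraries, with a median ratio of 0.740.

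**Figure D2:**
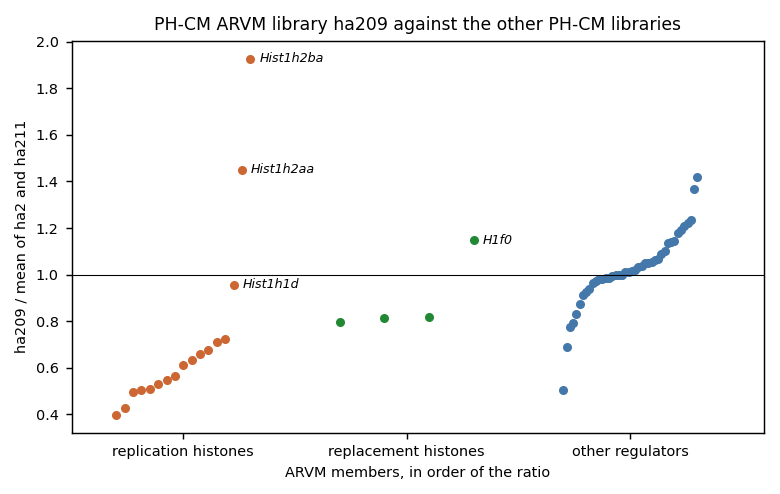
Ratio of the normalized count in PH-CM library ha209 to the mean of PH-CM libraries ha2 and ha211, for each listed histone or chromatin regulator in ARVM, in order of the ratio within replication histones (orange), replacement histones (green) and all other members (blue); the line marks a ratio of 1. Replication histones lie at a median of 0.611, with Hist1h2aa and Hist1h2ba as the 2 above 1, the replacement histones H2afz, H2afx and H2afy2 at 0.798 to 0.817, and the other members spread from 0.504 (Cbx2) to 1.42 (Hdac9).

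The genes that supply and load histones moved with them in part. Of the S phase and mitosis genes, 26 rose and Mcm7 fell (log2 fold change −0.67 ± 0.11, adjusted p = 0.000727), and the list median was 3.15. Their sum went from 4548, 4189 and 4147 normalized counts to 12781, 10094 and 14661, 2.91 times as high. Mki67, the proliferation marker, had 44.3, 42.8 and 14.5 and 656, 557 and 848 (log2 fold change 4.44 ± 0.42, adjusted p = 3.58e-05). Top2a, the topoisomerase of mitotic chromosomes, had 7.91, 11.8 and 5.17 and 814, 696 and 1068 (log2 fold change 6.57 ± 0.32, adjusted p = 1.12e-06). The part of these genes in the rise of the histones was not tested. Of 24 histone chaperones 15 were listed, of which 10 rose and 5 fell (list median 0.45). Asf1b, which carries H3 and H4 in dividing cells, rose by 3.43, Hjurp, the chaperone of the centromere, by 3.23, and Chaf1b, a subunit of the replication-coupled assembly factor CAF-1, by 2.81 on the log2 scale. Nasp and Nap1l4, chaperones of H1 and core histones, fell by 0.64 and 0.76. All 4 listed genes of histone mRNA processing rose by less than 1, among them Slbp, which binds the stem-loop (log2 fold change 0.37 ± 0.10, adjusted p = 0.00688).

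Histone deacetylases split within the class. Hdac1, a catalytic subunit of the NuRD, Sin3 and CoREST complexes, had 473, 399.5 and 373 normalized counts in freshly isolated ARVM and 867, 775 and 903 in PH-CM ARVM (log2 fold change 1.03 ± 0.12, adjusted p = 9.33e-05). Its close relative Hdac2 had 1578, 1501 and 1498 and 1411, 1330.4 and 1249 (log2 fold change −0.20 ± 0.07, adjusted p = 0.021). The ratio of Hdac1 to Hdac2 within a library, which does not depend on library scaling, went from 0.300, 0.266 and 0.249 to 0.615, 0.582 and 0.723. The difference was 1.23 on the log2 scale and is given with no test, since both genes had been selected for groups that do not overlap and moved in opposite directions. Hdac8 rose by 0.93, from 88.6, 126 and 162 to 242, 255 and 206. The class IIa deacetylases Hdac5 and Hdac9, which bind MEF2 factors and are known as brakes on hypertrophic growth of myocytes, both fell. Hdac5 went from 1905, 2847 and 2545 to 1216, 1141 and 1027 (log2 fold change −1.09 ± 0.14, adjusted p = 0.000215). Hdac9 went from 258, 189.6 and 269.6 to 93.8, 119.9 and 75.3 (log2 fold change −1.31 ± 0.24, adjusted p = 0.00124). The fall of Hdac2 was small and did not pass without freshly isolated con4 (adjusted p = 0.0602, limma) or without PH-CM library ha211 (adjusted p = 0.0614).

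The 3 listed sirtuins, NAD-dependent deacylases that work in mitochondria, all fell. Sirt3, the main mitochondrial deacetylase, had 812, 795 and 778 normalized counts in freshly isolated ARVM and 504, 503 and 491 in PH-CM ARVM (log2 fold change −0.67 ± 0.08, adjusted p = 9.88e-05), with a spread within each group that was small beside the gap. Sirt4 had 116, 105 and 112 and 61.3, 70.7 and 77.9 (log2 fold change −0.66 ± 0.21, adjusted p = 0.0171). Sirt5, which removes succinyl groups, had 1500.3, 1360.3 and 1654 and 1245, 1286 and 1208 (log2 fold change −0.27 ± 0.08, adjusted p = 0.0139). Without PH-CM library ha2 Sirt4 was just above the threshold (adjusted p = 0.0506, limma), as was Sirt5 without freshly isolated con6 (adjusted p = 0.0508).

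The listed writers and readers of acetylation had lower means. All 3 listed acetyltransferases, of 9 annotated in the rat, fell. Kat6a went from 1037, 1158 and 1075 to 777, 755 and 764 (log2 fold change −0.51 ± 0.07, adjusted p = 0.000314). Kat8, which acetylates H4, went from 919, 918 and 1013 to 796, 760.1 and 768 (log2 fold change −0.29 ± 0.07, adjusted p = 0.00617). Kat5, the catalytic subunit of the Tip60 complex, went from 945, 847 and 898 to 752, 745 and 746 (log2 fold change −0.26 ± 0.07, adjusted p = 0.00999). The PH-CM values of each lay within a narrow band. That this band was below all freshly isolated values was fixed by the selection, since the groups did not overlap in 100% of listed genes. Among bromodomain readers, Brd3 fell from 509.6, 539.9 and 589.9 to 349, 396 and 446 (log2 fold change −0.46 ± 0.12, adjusted p = 0.00734). Brd7, a subunit of a SWI/SNF complex, fell from 997, 964 and 1070.2 to 779, 767 and 779 (log2 fold change −0.38 ± 0.07, adjusted p = 0.00141).

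Of the 6 listed lysine methyltransferases 2 rose, 3 fell and 1 did not pass. Setd2, which lays down trimethylation of H3K36 along transcribed genes, went from 1039.8, 1042 and 1006 to 658, 756 and 670.3 (log2 fold change −0.57 ± 0.08, adjusted p = 0.000301). Setd6, best known for methylating the NF-kB subunit RelA, fell from 220, 304 and 280 to 142, 173 and 149 (log2 fold change −0.78 ± 0.18, adjusted p = 0.00413). Kmt2e, a KMT2 family protein, fell from 692, 632 and 574 to 454, 525 and 542 (log2 fold change −0.32 ± 0.11, adjusted p = 0.0242). Setd7, which methylates H3K4 and other proteins, rose from 896, 917 and 917 to 1099, 1197 and 1154 (log2 fold change 0.34 ± 0.07, adjusted p = 0.00175). Setd5 rose from 1127, 1209 and 1081 to 1298, 1352 and 1282 (log2 fold change 0.20 ± 0.07, adjusted p = 0.0196). Setdb1, the H3K9 methyltransferase of silenced repeats, had 817, 831 and 849 and 749, 790.3 and 689 (log2 fold change −0.17 ± 0.08, adjusted p = 0.0733) and passed, of the settings tried, only without PH-CM library ha209 (adjusted p = 0.0350). The calls of Kmt2e and Setd5 were the least firm of this family. Kmt2e was lost without PH-CM library ha2 (adjusted p = 0.0805, limma), freshly isolated con4 (0.0744) or freshly isolated con5 (0.0585), and Setd5 without freshly isolated con6 (0.0750) or with DESeq2 on the reads (0.0641).

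Of the 6 listed lysine demethylases, which take methyl marks off, 2 rose and 4 fell. Kdm5b, an H3K4 demethylase, went from 500.1, 587 and 638 to 935, 958 and 985 (log2 fold change 0.74 ± 0.10, adjusted p = 0.000272). Kdm4a, an H3K9 and H3K36 demethylase, rose from 1024, 1039 and 1260.3 to 1459, 1464 and 1524 (log2 fold change 0.43 ± 0.09, adjusted p = 0.00254). Kdm4c, of the same family as Kdm4a, fell from 381, 445 and 412 to 298, 324 and 311 (log2 fold change −0.41 ± 0.11, adjusted p = 0.00986). Kdm6b, which removes the Polycomb mark from H3K27, fell by 0.70 on the log2 scale and Kdm3a, an H3K9 demethylase, by 0.31. Kdm2b, which brings a Polycomb complex to CpG islands, went from 369, 440.2 and 448 to 324, 314 and 326 (log2 fold change −0.38 ± 0.12, adjusted p = 0.0164). This call was lost without freshly isolated con5 (adjusted p = 0.0544) or con6 (adjusted p = 0.0587, limma).

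In the Polycomb system, the methyltransferase of non-dividing cells fell while readers of its mark rose. Ezh1 had 1483, 1666 and 1622 normalized counts in freshly isolated ARVM and 913, 1095 and 946 in PH-CM ARVM (log2 fold change −0.69 ± 0.09, adjusted p = 0.000179), and no other core subunit of the PRC2 complex was among the listed genes. The chromobox proteins Cbx2, Cbx6 and Cbx7, which read H3K27 methylation within the PRC1 complex, all rose. Cbx2 went from 39.6, 55.7 and 67.1 to 160.3, 99.2 and 234 (log2 fold change 1.53 ± 0.36, adjusted p = 0.00418). Cbx6 went from 495, 571 and 493 to 1069, 875 and 1034 (log2 fold change 0.93 ± 0.11, adjusted p = 0.000106), and Cbx7 from 289.6, 448 and 434 to 625, 695 and 524 (log2 fold change 0.67 ± 0.19, adjusted p = 0.00981). Cbx5, the heterochromatin protein HP1 alpha, fell from 1203, 1038 and 1113 to 961, 885 and 752 (log2 fold change −0.37 ± 0.11, adjusted p = 0.0103). Of 21 other Polycomb genes, among them Kdm2b, 7 were listed, 2 higher and 5 lower. Phf19, an accessory subunit of PRC2, rose by 2.38 on the log2 scale, and the PRC1 subunits Pcgf5 and Bmi1 fell by 1.25 and 0.99.

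**Figure D3:**
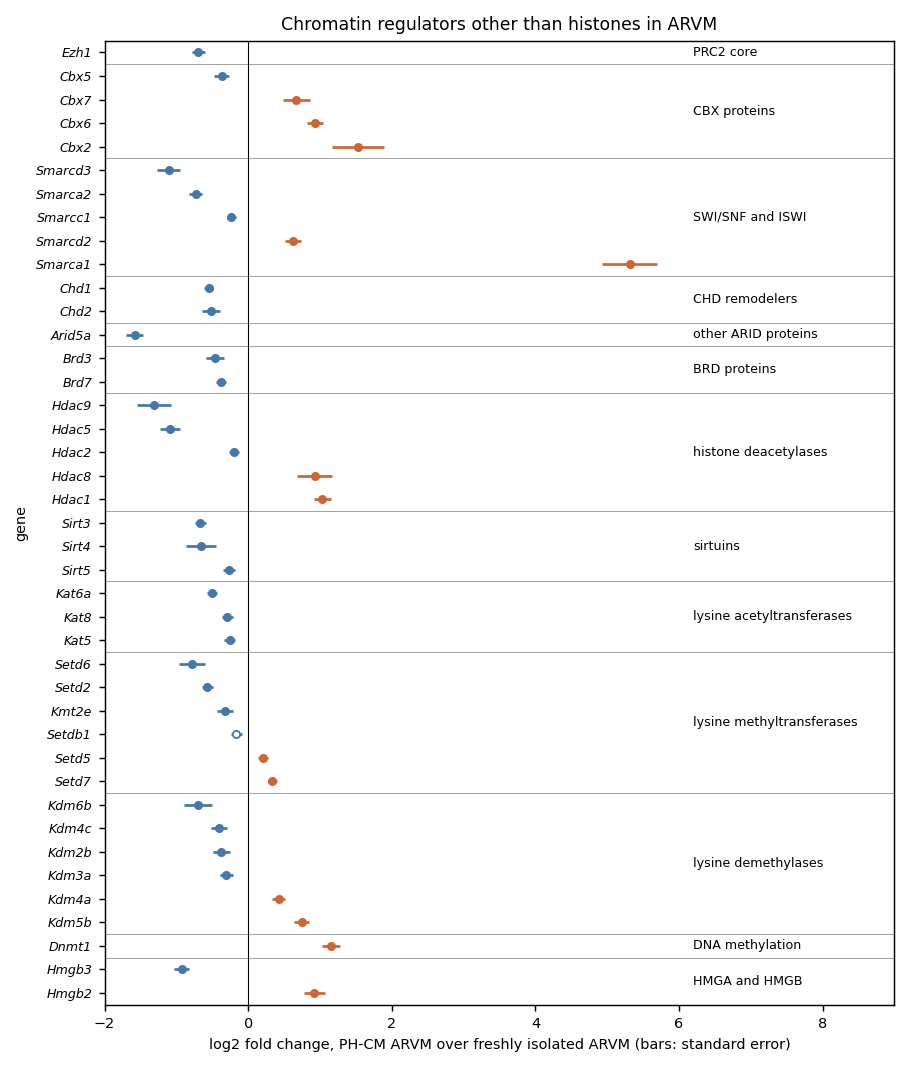
Log2 fold change (PH-CM ARVM over freshly isolated ARVM, limma on log2(normalized count + 1), bars are standard errors, n = 3 per group) of 41 members that are not histones, by functional group; orange marks those that rose, blue those with a lower mean, and the open circle the 1 shown that did not pass the threshold. Points lie left of 0 for 28 of these 41, among them all sirtuins, acetyltransferases and CHD proteins, and Smarca1 stands far to the right at 5.31, a value that depends on the pseudocount because its freshly isolated libraries were at 0 reads.

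Of the 5 listed subunits of ATP-driven SWI/SNF and ISWI remodelers, 2 rose and 3 fell. Smarca1, the ISWI ATPase SNF2L, was at 0 reads in all 3 freshly isolated libraries and had 27.2, 38.0 and 55.9 normalized counts in PH-CM ARVM, 146 reads in all. Set against a floor of 3 reads over the freshly isolated group, it was at least 33.7-fold higher (adjusted p = 8.73e-06, limma). Within SWI/SNF, the exchangeable subunit Smarcd3, known as the BAF60c of heart muscle, fell from 840.3, 959.7 and 991 to 467, 336 and 504 (log2 fold change −1.11 ± 0.16, adjusted p = 0.000326). Its paralog Smarcd2 rose from 571, 484 and 593 to 809.9, 803 and 926 (log2 fold change 0.62 ± 0.11, adjusted p = 0.000904). The ratio of Smarcd2 to Smarcd3 went from 0.680, 0.504 and 0.599 to 1.73, 2.39 and 1.84. The difference was 1.73 on the log2 scale, again a description with no test, as the selection of both genes fixed that the groups differ in it. Smarca2, the ATPase BRM, fell from 1935, 2261 and 2348 to 1425, 1295 and 1208 (log2 fold change −0.73 ± 0.09, adjusted p = 0.000187). Smarcc1, a scaffold subunit, fell from 1616, 1608 and 1540.2 to 1397, 1288 and 1353 (log2 fold change −0.24 ± 0.06, adjusted p = 0.00619).

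Both listed chromodomain helicases fell. Chd1, which acts at active genes, went from 2030.5, 1937 and 1826 to 1274, 1349 and 1330.4 (log2 fold change −0.55 ± 0.06, adjusted p = 0.000106). Chd2 fell from 2070, 1882 and 2067 to 1289, 1719 and 1222 (log2 fold change −0.52 ± 0.13, adjusted p = 0.00471). Of 13 other SWI/SNF subunits 4 were listed, with Ss18 higher and 3 lower, of which Bcl11a fell by 2.10. Of 20 partners in NuRD, Sin3 and CoREST complexes 5 were listed, with Sin3b higher and 4 lower. Arid5a, whose protein binds RNA and stabilizes that of interleukin 6, had the largest fall of all members, from 2030.5, 2615 and 2326 to 724, 889.5 and 715 (log2 fold change −1.58 ± 0.12, adjusted p = 1.01e-05). Dnmt1, which copies DNA methylation at replication, rose from 421, 407 and 365 to 954, 747 and 972 (log2 fold change 1.16 ± 0.13, adjusted p = 7.53e-05). The high mobility group proteins, which bend DNA, went in opposite directions. Hmgb2 had 519, 431 and 403 and 829.6, 729.9 and 1014 (log2 fold change 0.92 ± 0.15, adjusted p = 0.000598). Hmgb3 had 1220.2, 1015 and 1056 and 513, 608 and 606 (log2 fold change −0.93 ± 0.11, adjusted p = 9.85e-05). Uhrf1, the partner that brings Dnmt1 to newly copied DNA and a gene of the S phase list, rose by 2.95 on the log2 scale.

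In Cfib, 18 members were listed, and the histones went the other way. Of 5 listed histones 4 were lower and 1 higher in PH Cfib, and of 13 other members 10 were higher and 3 lower. All 18 passed the test (11 higher, 7 lower), beside 97.5% of the 2115 listed genes (58.2% higher, 39.4% lower). With an absolute log2 fold change of at least 1 as well, 4 were called (2 higher, 2 lower), beside 34% of all listed genes. These fold changes are on the log2(signal + 1) scale, which understates the change of genes with a low signal. HIST1H1D, for example, had a log2 fold change of −0.78 but a ratio of group means of 0.329. The median log2 fold change was −0.95 over the histones, 0.44 over the other members and 0.33 over all listed genes. With a pseudocount of 0.1 the median was −1.45 over the histones and 0.45 over the other members. When libraries were rescaled by the median of ratios, the median over all listed genes moved by −0.27, and 5 members were called higher and 7 lower. Over all listed genes, 840 were then called higher and 869 lower, against 1230 and 833 before. The share of calls that were higher went from 59.6% to 49.2%. The 4 falls and the rise among the histones were called under either scaling.

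H1F0 fell furthest. Its signal was 91.0, 96.1 and 92.0 in CO Cfib 1, 2 and 3 and 21.2, 21.7 and 22.5 in PH Cfib 1, 2 and 3 (log2 fold change −2.05 ± 0.05, adjusted p = 1.24e-06), that is a ratio of 0.234. H2AFX had 25.3, 30.3 and 42.3 in CO and 10.9, 11.1 and 10.4 in PH Cfib (log2 fold change −1.48 ± 0.18, adjusted p = 0.000341). The replication histone HIST1H2BD, an H2B gene, had 11.6, 12.2 and 12.1 against 7.08, 5.70 and 4.54 (log2 fold change −0.95 ± 0.14, adjusted p = 0.000843). HIST1H1D, a linker histone gene, had 1.46, 1.59 and 1.89 against 0.499, 0.661 and 0.464 (log2 fold change −0.78 ± 0.09, adjusted p = 0.000378). H2AFY2, which encodes macroH2A, was the exception and rose from 0.811, 0.762 and 1.10 to 1.99, 1.88 and 1.98 (log2 fold change 0.64 ± 0.09, adjusted p = 0.000722). The CO libraries differed more among themselves than the PH libraries, with a median coefficient of variation over the 18 genes of 13.4% against 5.34%. On this length-scaled signal H1F0 had the highest mean of the 18 in CO Cfib (93.0 ± 2.70), above HDAC3 (38.9 ± 5.45) and CBX1 (36.7 ± 3.39), and in PH Cfib HDAC3 (55.4 ± 0.624) and CBX1 (49.9 ± 0.320) lay above H1F0 (21.8 ± 0.666).

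The genes around replication fell with these histones. All 17 listed S phase and mitosis genes fell. Their median log2 fold change was −2.03, and their summed signal was 342.5 to 473 in the CO libraries and 78.7 to 83.9 in the PH libraries. All 5 listed histone chaperones fell. ASF1B had 8.82, 12.4 and 11.2 in CO and 0.742, 0.757 and 0.950 in PH Cfib (log2 fold change −2.69 ± 0.13, adjusted p = 1.02e-05). The CAF-1 subunit CHAF1A had 7.48, 10.9 and 13.0 and 2.90, 2.75 and 3.22 (log2 fold change −1.51 ± 0.18, adjusted p = 0.000393). Whether these genes have a part in the fall of the histones was not tested. All 4 listed fibroblast markers were higher in PH Cfib (sums of 2005 to 2656 against 6423 to 6721), and no cardiomyocyte marker was listed. Of 6 listed smooth muscle and pericyte markers 5 rose and 1 fell (98.2 to 134 against 229 to 240.3). Of 5 listed macrophage markers 4 rose and 1 fell (8.06 to 11.1 against 10.4 to 11.3, with C1QA and C1QB at 0 in every CO library), and the 1 listed endothelial marker fell (5.58 to 7.54 against 2.03 to 2.94). The part of these markers in the results for Cfib was not tested.

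The methyltransferases of PRC2 moved in opposite directions. EZH2, the enzyme of dividing cells, had a signal of 11.2, 15.1 and 15.2 in CO and 7.16, 6.05 and 6.41 in PH Cfib (log2 fold change −0.97 ± 0.13, adjusted p = 0.000632). EZH1 had 11.9, 10.9 and 7.56 and 21.3, 20.1 and 20.2 (log2 fold change 0.98 ± 0.16, adjusted p = 0.00119), and its call was lost when the PH libraries were averaged into 1 sample (adjusted p = 0.0526, limma). Per length, the EZH2 to EZH1 ratio was 0.940, 1.38 and 2.01 in CO and 0.336, 0.301 and 0.317 in PH Cfib. The difference was −1.94 on the log2(signal + 1) scale, given with no test because both genes had been selected for their difference. EZH2 was thus at or above the level of EZH1 in CO Cfib 2 and 3 and slightly below it in CO Cfib 1, and well below it in every PH library. With a pseudocount of 10 the difference was −1.13. Of 21 other Polycomb genes 4 were listed, 3 higher, led by the PRC1 subunit PCGF2 (log2 fold change 0.53 ± 0.08, adjusted p = 0.00112), and 1 lower.

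Among the other regulators, the ISWI ATPase SMARCA1 went from 5.17, 4.56 and 4.57 to 12.1, 12.0 and 11.5 (log2 fold change 1.16 ± 0.08, adjusted p = 3.48e-05). HDAC11, the class IV deacetylase, rose from 1.99, 1.76 and 2.29 to 5.63, 4.97 and 5.38 (log2 fold change 1.07 ± 0.10, adjusted p = 0.000109). DNMT3A, which sets new DNA methylation, rose from 4.50, 4.30 and 2.39 to 8.86, 7.83 and 7.18 (log2 fold change 0.95 ± 0.20, adjusted p = 0.00385), a call that was lost when the PH libraries were averaged into 1 sample (adjusted p = 0.0800, limma). The class IIa deacetylase HDAC7 (0.44), HDAC3 of the NCoR complex (0.51), the heterochromatin protein CBX1 (0.44), SMARCD2 (0.34), SMARCD3 (0.40) and SMARCAL1, an annealing helicase at stalled forks (0.56), rose by less than 1, each value a log2 fold change. These 6 were also the ones no longer called after rescaling by the median of ratios, with adjusted p from 0.0591 for HDAC7 to 0.375 for SMARCD2 (limma). ARID5A fell from 8.04, 9.43 and 10.1 to 4.16, 4.71 and 3.90 (log2 fold change −0.95 ± 0.11, adjusted p = 0.000295). KDM8, a protein with a demethylase-like domain, fell from 3.03, 3.01 and 2.70 to 1.71, 1.96 and 1.40 (log2 fold change −0.55 ± 0.10, adjusted p = 0.0024). The SMARCD2 to SMARCD3 ratio was 1.52, 1.70 and 1.20 in CO and 1.32, 1.54 and 1.30 in PH Cfib. The difference of −0.07 on the log2 scale did not exceed the spread (two-sided exact permutation test, p = 0.8). With 3 against 3 libraries this test cannot give a p below 0.1, and both genes had been selected for a difference.

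**Figure D4:**
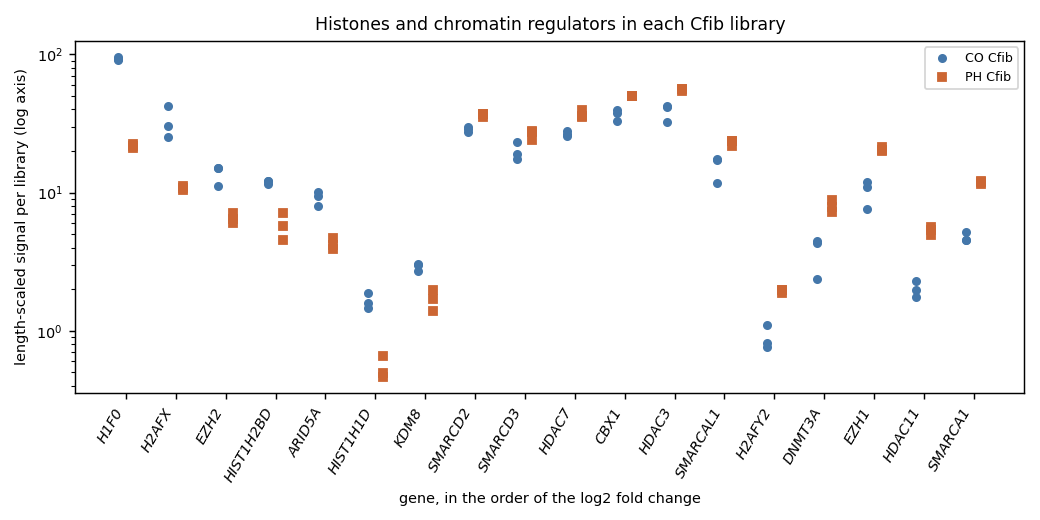
Length-scaled signal (log axis) of the 18 listed histones and chromatin regulators in each Cfib library, in order of log2 fold change; blue circles are the 3 CO libraries and orange squares the 3 PH libraries. Of the 5 histones, H1F0, H2AFX, HIST1H2BD and HIST1H1D lie lower in PH Cfib and H2AFY2 higher, and EZH2 and EZH1 move in opposite directions.

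The 10 genes listed in both tables can be set side by side, although the species, the units and the contrasts differ and no test was made between them. In 4 the direction was the same, H2afy2, Smarca1 and Smarcd2 being higher and Arid5a lower in both. In the other 6 the directions were opposite. For SMARCD2 and SMARCD3 the Cfib direction was weak, since rescaling by the median of ratios left log2 fold changes of 0.06 and 0.13 (adjusted p = 0.375 and 0.367, limma). The 4 histones H1f0, H2afx, Hist1h1d and Hist1h2bd were lower in PH Cfib and higher in PH-CM ARVM, with log2 fold changes of −2.05 and 0.37 for H1f0 and of −0.95 and 3.02 for Hist1h2bd. Ezh1 and Smarcd3 were higher in PH Cfib (0.98 and 0.40) and lower in PH-CM ARVM (−0.69 and −1.11). Smarca1 rose by 1.16 in Cfib, and H2afy2 by 0.64 in Cfib and 1.61 in ARVM. The pseudocount of 1 shrinks the fold change of genes with a low Cfib signal, so these sizes are not on a like scale. By ratio of group means, H2afy2 was 2.18-fold higher in PH Cfib and 2.99-fold higher in PH-CM ARVM. Arid5a had a log2 fold change of −0.95 in Cfib and −1.58 in ARVM.

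**Figure D5:**
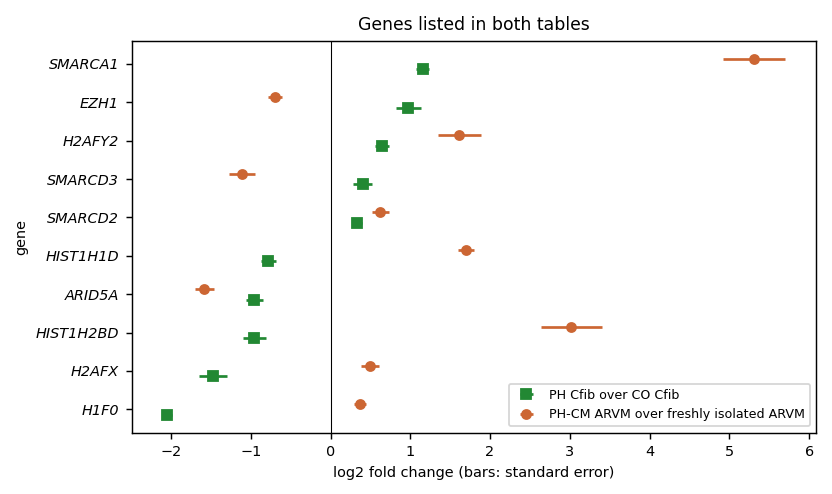
Log2 fold changes with standard errors (limma on log2(value + 1), n = 3 per group) of the 10 members listed in both tables, as PH Cfib over CO Cfib (green squares) and PH-CM ARVM over freshly isolated ARVM (orange circles, where the value of SMARCA1 depends on the pseudocount). The 2 points of a gene lie on opposite sides of 0 for 6 genes, the 4 histones H1F0, H2AFX, HIST1H1D and HIST1H2BD among them. Fold changes of genes with a low Cfib signal are shrunk by the pseudocount, so sizes are not on a like scale.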

How the data were processed

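According to the sources, the authors aligned reads to rn6 and bosTau8 with HISAT2 and StringTie, normalized them with DESeq2 and deposited genes with p under 0.05. Each deposited ARVM value is a signal, the reads of a gene over the size factor of its library. In each library 100% of values were whole multiples of 1 step within 0.01 reads, which gave the reads. The deposited Cfib signal is scaled by length and library, and its depth is unknown. Members and gene lists were chosen with earlier results of these data known. The tests used limma 3.58.1 in R 4.3.3, with an eBayes trend and a pseudocount of 1, and were checked on simulated data. The alternatives were edgeR 4.0.16 and DESeq2 1.42.0 on the reads, pseudocounts of 0.1 and 10, a minimum mean, rescaling, no trend, a minimum log2 fold change of 1, libraries left out, a replicate block and averaged PH libraries. Full statistics were given by rule to the largest changes of each functional group, to members of both tables or a listed paralog pair, and to members that did not pass, of which 1 is not reported here. The study describes the Cfib as coming from 3 animals per group. Nothing shows whether the ARVM libraries are separate animals or cultures, so their p-values measure the spread between libraries, which may be technical. Promoters were matched by symbol or synonym to RefSeq (GRCr8). Bovine sequences and proteins were not used here.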

Additional observations from a re-analysis of the deposited data

How the results depend on the processing

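All limits rest on 3 libraries per group and on genes selected for the difference. In ARVM, a minimum log2 fold change of 1 left 24 members called (20 higher, 4 lower), beside 48.3% of all listed genes, and in Cfib 4 (2 higher, 2 lower), beside 34%. The Cfib count is on the log2(signal + 1) scale, which understates the change of genes with a low signal. Leaving out 1 library gave 58 to 62 called in ARVM (33 to 34 higher, 25 to 28 lower) and 18 in Cfib each time (11 higher, 7 lower), with paralog differences of 1.14 to 1.31 for Hdac1/Hdac2, 1.59 to 1.84 for Smarcd2/Smarcd3, −2.19 to −1.69 for EZH2/EZH1 and −0.20 to 0.04 for SMARCD2/SMARCD3, which turned positive only without CO Cfib 2 (0.0393). Averaging the PH libraries into 1 sample left 11 Cfib members called, 4 of them higher. CBX1, DNMT3A, EZH1, HDAC3, SMARCAL1, SMARCD2 and SMARCD3 were then lost, with adjusted p from 0.0526 (EZH1) to 0.132 (SMARCAL1) in limma. Rescaling by the median of ratios left 12, with 5 higher, and a pseudocount of 10 gave −1.13 for EZH2/EZH1. On the ARVM reads, edgeR called 61 members with or without a filter on low counts and DESeq2 called 60. The other settings, namely pseudocounts of 0.1 and 10 for the counts of calls, no trend and a minimum mean, called 60 to 62 ARVM members and 14 to 18 Cfib members, with fewer genes tested under a minimum mean. No member changed direction under any setting. The cause of these shifts was not tested.

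A replicate block for Cfib called 18 members (11 higher, 7 lower) and changed no call. For libraries of equal number, the correlations of their deviations were 0.258, 0.0312 and 0.259. CO Cfib 2 correlated more with PH Cfib 1 (0.102) than with PH Cfib 2. Whether libraries of equal number share more than that number was not tested. No paired analysis was possible for ARVM because the groups share no replicate numbers.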
